A study of Mus musculus with 2 samples.

Results

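TRAV5, TRAV8 and TRAV10 are 3 subgroups of variable (V) genes of the T cell receptor (TCR) alpha chain locus, Tra. Every TRA chain whose V gene call was TRAV5, TRAV8 or TRAV10, with their D and N copies, was taken from the annotated contigs of both libraries. This gave 183 of 1862 TRA chains in the WT library and 177 of 1920 in the Btla KO library, 360 of 3782 in all, and they used 10 of the 89 single TRAV genes found. The WT library came from C57BL/6J mice and the Btla KO library from C57BL/6-Btla KO (B6.Btla-/-) mice, a germline knockout, all aged 8 to 12 weeks. CD4 single positive (SP) T cells had been purified from thymocytes by negative selection with a naive CD4+ T cell kit, and their TCR transcripts were amplified and sequenced by the 10x Genomics V(D)J workflow. There was 1 library per genotype, and the number of mice behind each is not given in the sources used here, so no difference between genotypes could be tested. Each share is therefore given with its exact (Clopper-Pearson) 95% interval, which covers counting error only and not differences between mice or preparations. The libraries hold TCR transcripts alone, so neither Btla nor Cd4 could be looked at to check the labels.

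An alpha chain is made when 1 V gene is joined to 1 joining (TRAJ) segment, and the join forms the third complementarity determining region (CDR3), the loop that lies over the bound peptide, while CDR1 and CDR2 are encoded within the V gene. The V genes lie upstream of the TRAJ cluster, which is followed by the constant gene Trac, and an allele can rearrange again and again, each time joining a V gene further 5′ to a TRAJ segment further 3′. In C57BL/6 mice the central stretch of the V gene array is present in repeated copies, which are told apart in gene names by a D or an N.

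All 10 genes lie on chromosome 14, plus strand (GRCm38 coordinates, GENCODE M21 annotation). Their 3′ ends are shown first because they supply the beginning of every CDR3 described here. In each line the 15 bases in lower case before the capitals end the framework region, the 13 capitals are the germline bases that enter the CDR3, and the 7 lower case bases after them are the heptamer of the recombination signal, where the gene is cut.
TRAV5-1, chr14:52623055-52623089: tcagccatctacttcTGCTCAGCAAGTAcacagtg
TRAV5N-4, chr14:53313395-53313429: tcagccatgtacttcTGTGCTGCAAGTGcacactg
TRAV5-4, chr14:53704487-53704521: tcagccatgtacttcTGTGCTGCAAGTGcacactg
TRAV8D-1, chr14:52778968-52779002: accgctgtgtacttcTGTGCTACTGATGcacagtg
TRAV8D-2, chr14:53042864-53042898: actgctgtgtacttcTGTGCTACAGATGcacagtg
TRAV8N-2, chr14:53346397-53346431: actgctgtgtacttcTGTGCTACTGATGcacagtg
TRAV8-1, chr14:53470205-53470239: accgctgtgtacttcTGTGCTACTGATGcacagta
TRAV10D, chr14:52811469-52811503: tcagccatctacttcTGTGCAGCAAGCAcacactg
TRAV10N, chr14:53122583-53122617: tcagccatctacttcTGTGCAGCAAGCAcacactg
TRAV10, chr14:53506259-53506293: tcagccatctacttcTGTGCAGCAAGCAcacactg
The 3 TRAV10 genes end identically, as do TRAV5-4 and TRAV5N-4, whereas TRAV5-1 has its own end. Translated, the capitals start a CDR3 with CSAS in TRAV5-1, CATD in all 4 TRAV8 genes, and CAAS in the other genes of TRAV5 and in TRAV10.

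Over the bases from framework region 1 to framework region 3, the contigs matched the genome sequence of the called gene in every chain except 1 of 24 TRAV8D-1 chains and 1 of 27 TRAV8D-2 chains. The copies differ unequally. Over 267 bases TRAV10 and TRAV10D differ at 2 positions, TRAV10D and TRAV10N at 2, and TRAV10 and TRAV10N at 4. TRAV5-4 and TRAV5N-4 differ at 6, but TRAV5-1 differs from TRAV5-4 at 48, an identity of 82.0%. Within TRAV8, over 264 bases, TRAV8-1 and TRAV8D-1 differ at 3 and TRAV8D-2 and TRAV8N-2 at 23, while TRAV8-1 and TRAV8D-2 differ at 44. A further gene, TRAV5D-4, is identical to TRAV5N-4 over these 267 bases and over the 52 bases of the leader exon. No contig was called TRAV5D-4, so the chains called TRAV5N-4 could come from either gene.

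CDR1 holds a minority of the differences between the more distant genes, and is shown because it tells some of the copies apart. The capitals mark the bases that vary within a subgroup.
TRAV5-1: GacagtgcctcTGTctac
TRAV5-4: GacagtgcctcCAActac
TRAV5N-4: AacagtgcctcCAActac
TRAV8-1 and TRAV8D-1: acAtCCaTaactgCC
TRAV8D-2: acTtATaCaactgTT
TRAV8N-2: acTtACaCaactgTT
TRAV10: gatactgcTtcatcatac
TRAV10D and TRAV10N: gatactgcCtcatcatac
CDR1 varies at 4 of 18 bases in TRAV5, at 6 of 15 in TRAV8 and at 1 of 18 in TRAV10. In CDR2, 1 of 21 bases varies in TRAV5, 1 in TRAV8 and 0 in TRAV10. TRAV8 thus falls into a pair of sets by CDR1, TRAV8-1 with TRAV8D-1 and TRAV8D-2 with TRAV8N-2.

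The 3 subgroups made up 9.83% (interval 8.51 to 11.3%) of WT TRA chains and 9.22% (7.96 to 10.6%) of Btla KO TRA chains. TRAV5 was carried by 71 WT chains, 3.81% (2.99 to 4.79%), and by 55 Btla KO chains, 2.86% (2.17 to 3.71%). TRAV8 was carried by 62 WT chains, 3.33% (2.56 to 4.25%), and by 68 Btla KO chains, 3.54% (2.76 to 4.47%). TRAV10 was carried by 50 WT chains, 2.69% (2.0 to 3.53%), and by 54 Btla KO chains, 2.81% (2.12 to 3.65%). In all 3 subgroups the intervals of the libraries overlapped. They held ranks 9 to 12 of the 20 TRAV subgroups in both libraries, with TRAV10 at rank 12 in each.

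Among single genes, usage ran from 2 to 33 chains in the WT library and from 10 to 25 in the Btla KO library. TRAV5-4 was the most used of the 10 in WT, with 33 chains or 1.77% (1.22 to 2.48%), against 22 chains or 1.15% (0.719 to 1.73%) in Btla KO. TRAV8-1 was found in 12 WT chains, 0.644% (0.333 to 1.12%), and in 25 Btla KO chains, 1.30% (0.844 to 1.92%). For these genes the share was 1.55 times as high in WT and 2.02 times as high in Btla KO, respectively, with overlapping intervals in both cases. Of the 66 TRAV genes with at least 20 chains, 30.3% were past 1.5-fold between the libraries in either direction, and of the 9 such genes described here 2 were, which is close to that background. The intervals were apart for 1.52% of the 66 genes and for 0 of these 9.

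**Figure D1:**
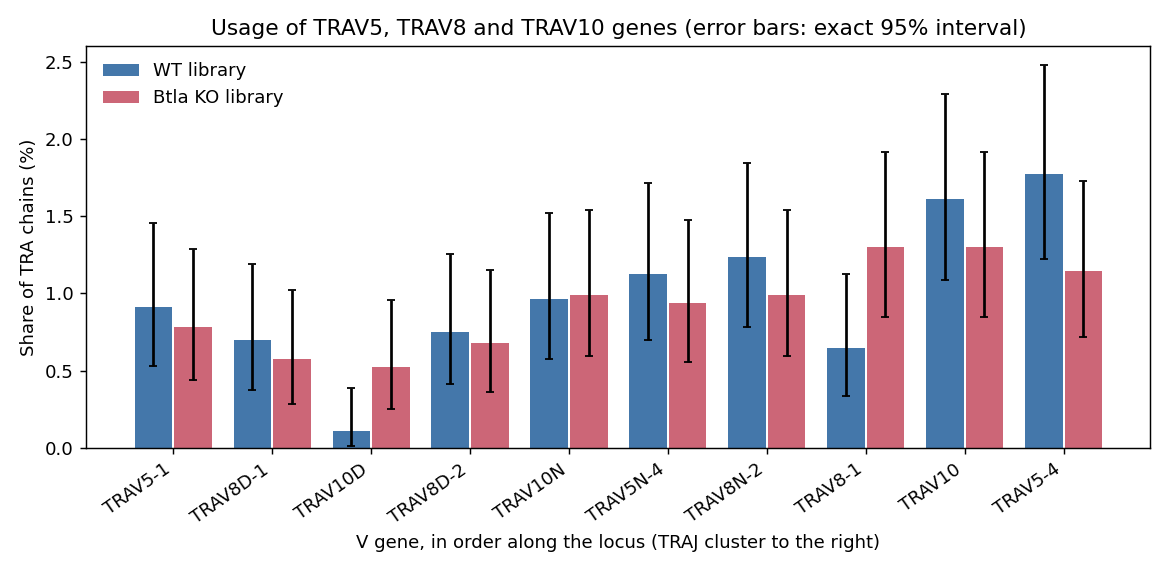
Share of the TRA chains of a library (y axis, percent) carried by each V gene (x axis, in the order of the locus), WT in blue and Btla KO in red, with exact 95% intervals as error bars. TRAV8-1 and TRAV10D stand higher in Btla KO and TRAV5-4 stands higher in WT, and the intervals of the libraries overlap for all 10 genes.

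Apart from TRAV10D, the remaining genes were used more evenly. TRAV5-1 had 17 WT and 15 Btla KO chains, and TRAV5N-4 had 21 and 18. TRAV8D-1 had 13 and 11, TRAV8D-2 had 14 and 13, and TRAV8N-2 had 23 and 19. TRAV10 itself had 30 and 25, and TRAV10N had 18 and 19. TRAV10D was the rarest, with 2 WT chains, 0.107% (0.0130 to 0.387%), and 10 Btla KO chains, 0.521% (0.250 to 0.956%), a ratio of 4.85 that was the largest of the 10 genes, and 7 of those 10 chains rested on 1 or 2 unique molecular identifiers (UMIs, the tags that mark single captured transcripts). All 3 genes of TRAV5 had more chains in WT, whereas in TRAV8 and TRAV10 some genes had more in WT and others more in Btla KO.

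The choice of TRAJ partner set TRAV5-4 apart from the other genes described here, over both libraries together. TRAJ segments are numbered from the Trac side, so TRAJ1 to TRAJ30 are the 3′ part of the cluster, and in these libraries TRAJ58 (chr14:54157280-54157342) was the 5′-most segment used and TRAJ2 (chr14:54217836-54217901) the 3′-most. Of 55 TRAV5-4 chains, 3 were joined to TRAJ1 to TRAJ30, which is 5.45% (1.14 to 15.1%). The count was 2 of 33 in WT, 6.06% (0.743 to 20.2%), and 1 of 22 in Btla KO, 4.55% (0.115 to 22.8%), so both libraries showed the same preference. The median TRAJ number of TRAV5-4 chains was 45 in WT and 45.5 in Btla KO, and its most frequent partner was TRAJ49, with 4 WT chains and 1 Btla KO chain.

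TRAV5N-4, whose V exon differs from that of TRAV5-4 at 6 of 267 bases, was joined to TRAJ1 to TRAJ30 in 64.1% (47.2 to 78.8%) of 39 chains, with 14 of 21 in WT and 11 of 18 in Btla KO. TRAV5-1, the other gene of the subgroup, reached 81.3% (63.6 to 92.8%) of 32 chains, with 12 of 17 in WT and 14 of 15 in Btla KO. The interval of TRAV5-4 did not overlap that of either gene, over both libraries or within each. The 3′ end of TRAV5-4 lies 453 kb before TRAJ58, that of TRAV5N-4 844 kb and that of TRAV5-1 1534 kb before it. Had the chains called TRAV5N-4 come from TRAV5D-4, their distance would be 1155 kb.

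TRAV10 showed the same order on a smaller scale. TRAV10, at 651 kb, was joined to TRAJ1 to TRAJ30 in 50.9% (37.1 to 64.6%) of 55 chains, with 14 of 30 in WT and 14 of 25 in Btla KO. TRAV10N, at 1035 kb, was joined to them in 83.8% (68.0 to 93.8%) of 37 chains, with 14 of 18 in WT and 17 of 19 in Btla KO. The V exons of these genes differ at 4 bases and their CDR3-encoding ends are identical. Their intervals were apart over both libraries together, but overlapped within WT (28.3 to 65.7% for TRAV10 and 52.4 to 93.6% for TRAV10N) and within Btla KO (34.9 to 75.6% and 66.9 to 98.7%). The 12 TRAV10D chains, at 1346 kb, included 7 with such a TRAJ, 0 of 2 in WT and 7 of 10 in Btla KO, a count too small to place the gene between its copies.

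TRAV8 genes did not separate in this way. TRAV8-1, at 687 kb, was joined to TRAJ1 to TRAJ30 in 73.0% (55.9 to 86.2%) of 37 chains, with 10 of 12 in WT and 17 of 25 in Btla KO. TRAV8N-2, at 811 kb, reached 81.0% (65.9 to 91.4%) of 42 chains, TRAV8D-2, at 1114 kb, 70.4% (49.8 to 86.2%) of 27 and TRAV8D-1, at 1378 kb, 58.3% (36.6 to 77.9%) of 24. The gene farthest from the TRAJ cluster had the lowest share, but all 4 intervals overlapped. TRAV8D-1 chains in WT were spread over the whole cluster, with 6 of 13 on TRAJ1 to TRAJ30 and 6 on TRAJ41 to TRAJ58, but 3 of the latter were 1 chain repeated in 3 cells, and 6 of the 11 distinct chains were on TRAJ1 to TRAJ30.

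**Figure D2:**
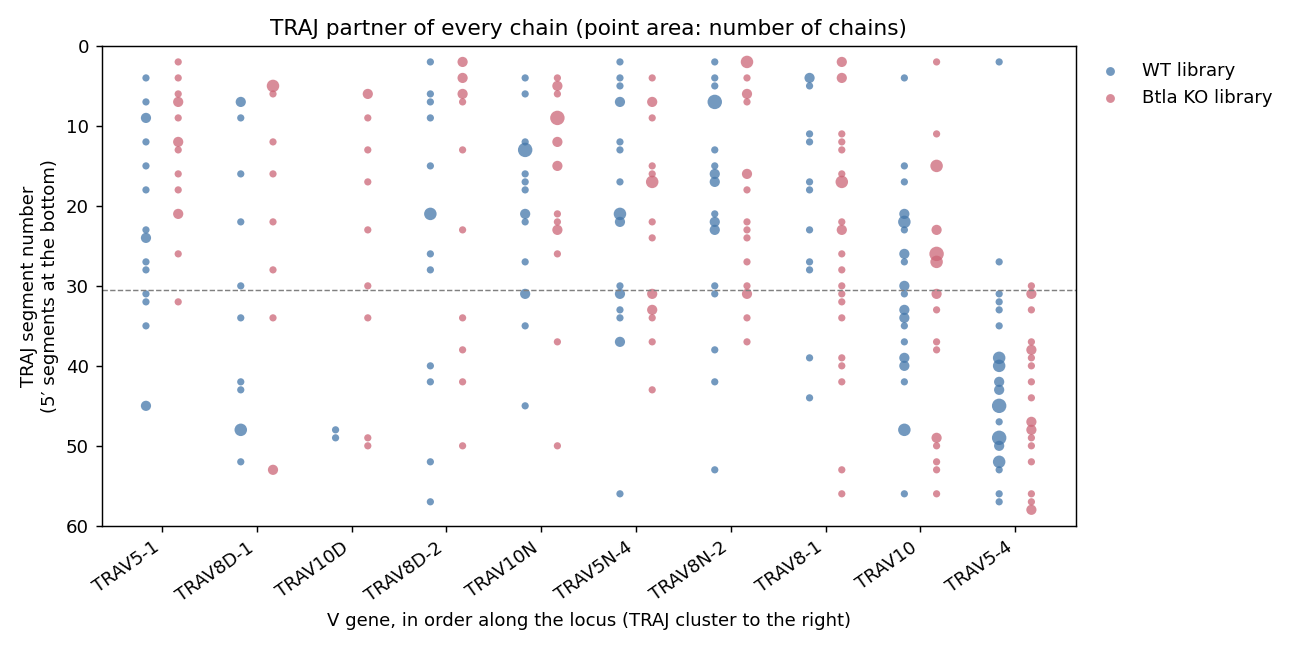
TRAJ segment number (y axis, TRAJ58 side at the bottom) of every chain of each V gene (x axis, in the order of the locus), with the area of a point giving the number of chains, WT in blue and Btla KO in red. The dashed line separates TRAJ30 from TRAJ31. TRAV5-4 chains lie below the line except for 3 of 55, while TRAV10N and TRAV5-1 chains lie mostly above it.

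Set against all 66 TRAV genes with at least 20 chains, TRAV5-4 had the 6th lowest share on TRAJ1 to TRAJ30 and was the 9th closest to the TRAJ cluster. Its neighbours on either side that had enough chains were TRAV4-4-DV10 with 10.9% and TRAV6-7-DV9 with 16%. TRAV10 ranked 23rd lowest in share and 23rd closest. Across those 66 genes the share was lower the nearer a gene lay to the TRAJ cluster, with a Spearman rho of -0.77 between its start along the chromosome and the share. This is a description across genes, which share the libraries and are not replicates. Over the 10 genes described here rho was -0.39, and over 9 without TRAV5-4 it was -0.16, so within these subgroups the order rested mainly on that gene.

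**Figure D3:**
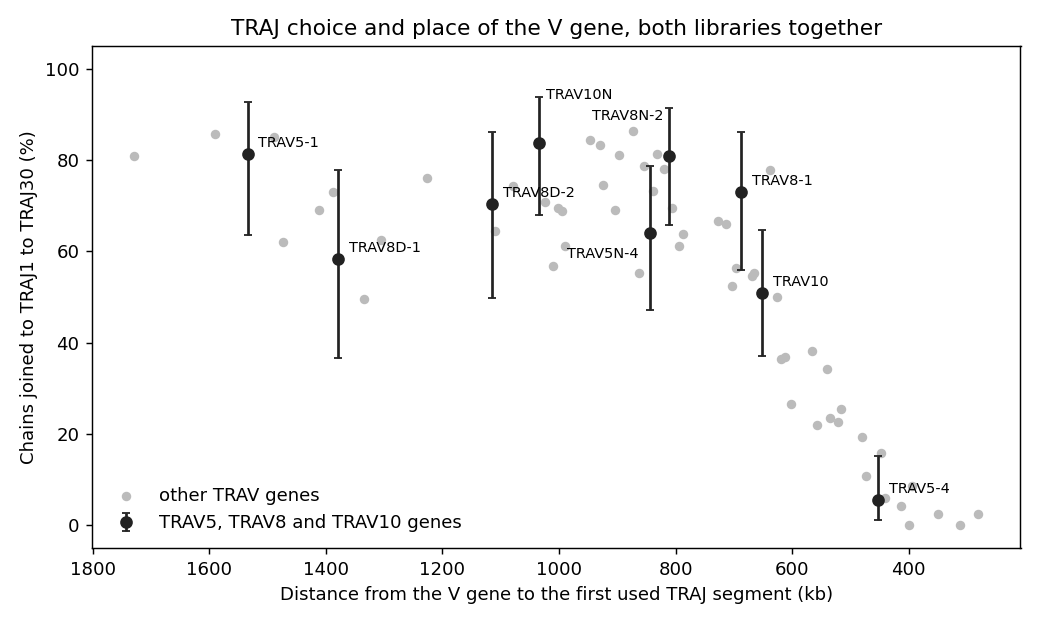
Share of the chains of a V gene joined to TRAJ1 to TRAJ30 (y axis, percent, both libraries together) against the distance from the V gene to the first used TRAJ segment (x axis, kb, decreasing to the right), for the 66 TRAV genes with at least 20 chains. Black points with exact 95% intervals are genes of TRAV5, TRAV8 and TRAV10 (TRAV10D, with 12 chains, is left out) and grey points are other TRAV genes. TRAV5-4 sits with the other genes near the TRAJ cluster, at 5.45%, and the 8 other black points lie between 50.9% and 83.8%.

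By subgroup, the share on TRAJ1 to TRAJ30 was 39.4% (28 to 51.7%) in WT and 47.3% (33.7 to 61.2%) in Btla KO for TRAV5. It was 72.6% (59.8 to 83.1%) and 72.1% (59.9 to 82.3%) for TRAV8, and 56% (41.3 to 70.0%) and 70.4% (56.4 to 82.0%) for TRAV10. All other TRAV chains had 47.9% (45.5 to 50.4%) in WT and 57.4% (55.0 to 59.7%) in Btla KO. TRAV8 was above the other chains in each library, with intervals apart, in Btla KO only just (59.9% against 59.7%), and the Btla KO interval reached below that of the other chains when contigs needed at least 3 UMIs (64.7%, 46.5 to 80.3%). The intervals of TRAV5 and TRAV10 overlapped those of the other chains in each library. Of the 61 TRAV genes with at least 10 chains in each library, 65.6% had the higher share in Btla KO. Of the 9 such genes described here, 4 did and 5 did not, namely TRAV5-4, TRAV5N-4, TRAV8-1, TRAV8D-2 and TRAV8N-2.

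Partners were spread over most of the 43 TRAJ segments found. TRAV5 used 35 segments in each library and 42 in all, TRAV8 used 32 in WT, 29 in Btla KO and 37 in all, and TRAV10 used 26 in each and 34 in all. No segment took more than 9 chains of a subgroup. The most used partners of TRAV5 were TRAJ31, with 4 WT and 4 Btla KO chains, TRAJ7, with 3 and 4, and TRAJ45, with 6 and 0. For TRAV8 they were TRAJ2, with 2 and 7 chains, TRAJ7, with 7 and 2, and TRAJ4, with 3 and 5. For TRAV10 they were TRAJ26, with 2 and 5 chains, TRAJ15, with 1 and 5, and TRAJ23, with 1 and 5. The TRAV5 partners came from both parts of the cluster, while all of those of TRAV8 and TRAV10 were 3′ segments.

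The largest differences between libraries within a subgroup rested on few chains. TRAV5 was joined to TRAJ45 in 8.45% (3.16 to 17.5%) of WT chains and in 0 of 55 Btla KO chains, which allows a share of up to 5.45% (3 counts of the total, with an exact interval that reaches 6.49%), and to TRAJ17 in 1 WT and 3 Btla KO chains. TRAV8 was joined to TRAJ7 less and to TRAJ2 more in Btla KO, by -8.35 and 7.07 percentage points. TRAV10 was joined to TRAJ9 in 0 of 50 WT chains, which allows up to 6% (exact interval to 7.11%), and in 5 Btla KO chains, and to TRAJ48 in 4 WT chains and 0 of 54 Btla KO chains, which allows up to 5.56% (exact interval to 6.60%). The exact intervals of the libraries overlapped for each of these, and the pairs were picked because they differed most. The rise of TRAJ2 was not particular to TRAV8. The other TRAV chains had 1.37% (0.870 to 2.05%) on TRAJ2 in WT and 4.82% (3.86 to 5.93%) in Btla KO, with intervals apart. For the other segments named in this paragraph the intervals of the other TRAV chains overlapped between the libraries.

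The CDR3 starts followed the germline ends printed above. CSAS opened 17 of 32 TRAV5-1 chains, 53.1%, and every CDR3 in the data beginning with CSA, 29 of 29, belonged to TRAV5-1. The other 3750 TRA chains had 0, which allows a share of up to 0.08%. CATD opened 46 of 130 TRAV8 chains and 2 of the 3422 chains of other TRAV subgroups, 0.0584% (0.00708 to 0.211%), so that TRAV8 carried 46 of the 48 CATD chains in the data. The shorter start CAT was found in 117 chains, of which 103 were TRAV8, 88.0% (80.7 to 93.3%). CAAS, in contrast, was common: it opened 374 of the 3422 other chains, 10.9%, besides 67 TRAV5 and 72 TRAV10 chains.

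How often the germline start was kept differed between subgroups. CAAS opened 62% (47.2 to 75.3%) of the TRAV10 chains in WT and 75.9% (62.4 to 86.5%) in Btla KO. CATD opened 33.9% (22.3 to 47.0%) of the TRAV8 chains in WT and 36.8% (25.4 to 49.3%) in Btla KO, and the subgroup had 40 distinct 4-residue starts. By gene, CATD opened 17 of 37 TRAV8-1 chains, 7 of 24 TRAV8D-1, 10 of 27 TRAV8D-2 and 12 of 42 TRAV8N-2. CAAS opened 34 of 55 TRAV10, 9 of 12 TRAV10D and 29 of 37 TRAV10N chains. TRAV8 thus kept its coded start less often than TRAV10, with intervals apart in each library, in WT only just (47.0% against 47.2%), but they overlapped in both when contigs needed at least 3 UMIs (TRAV8 37.8% and 41.2%, TRAV10 53.1% and 78.6% in WT and Btla KO).

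CAAS opened 59.2% (46.8 to 70.7%) of the TRAV5 chains in WT and 45.5% (32.0 to 59.4%) in Btla KO, TRAV5-1 included, which had 0. When contigs needed at least 3 UMIs, CAAS opened 56% (28 of 50) of the TRAV5 chains in WT and 54.8% (17 of 31) in Btla KO. With CSAS taken as the germline start of TRAV5-1, TRAV5 kept its own start in 52 of 71 WT chains, 73.2% (61.4 to 83.1%), and in 32 of 55 Btla KO chains, 58.2% (44.1 to 71.3%), which overlapped TRAV10 in each library. TRAV5-4 began with CAAS in 29 of 33 WT chains, 87.9% (71.8 to 96.6%), and in 12 of 22 Btla KO chains, 54.5% (32.2 to 75.6%). These intervals overlapped between 71.8 and 75.6%, and the TRAV5-4 shares were not recomputed with at least 3 UMIs. TRAV5N-4 began with CAAS in 26 of 39 chains over both libraries.

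The joints were then read in nucleotides. Each CDR3 was divided into bases matching the germline V end, bases matching the germline J start, and bases in between, where a base added or formed at the joint that happens to match the germline counts as germline. Of the 13 germline V bases, TRAV5 chains kept 11.2 ± 2.15 (mean ± SD over 126 chains), TRAV10 chains 11.3 ± 2.06 (104 chains) and TRAV8 chains 9.76 ± 2.63 (130 chains). All 13 were kept in 42.1% (33.3 to 51.2%) of TRAV5, 41.3% (31.8 to 51.4%) of TRAV10 and 21.5% (14.8 to 29.6%) of TRAV8 chains. TRAV8 kept fewer than TRAV5 and TRAV10 in both libraries, with 9.79 ± 2.63 in WT and 9.74 ± 2.65 in Btla KO.

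TRAV5-4 kept all 13 in 22 of 33 WT chains, 66.7% (48.2 to 82.0%), and in 8 of 22 Btla KO chains, 36.4% (17.2 to 59.3%). TRAV10N kept them in 12 of 18 WT chains, 66.7%, and 7 of 19 Btla KO chains, 36.8%, again with overlapping intervals, whereas TRAV10 itself kept them in 7 of 30 WT and 11 of 25 Btla KO chains. The direction between libraries was therefore not shared by the genes. The bases in between numbered 2.92 ± 2.51 in TRAV5, 3.05 ± 2.60 in TRAV8 and 2.81 ± 2.23 in TRAV10. Joints with 0 such bases made up 13.5%, 11.5% and 18.3% of chains, respectively.

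CDR3 length, counted in amino acids with the first cysteine and the last residue included, was close in the 3 subgroups. TRAV5 measured 13.7 ± 1.24 (mean ± SD, 71 chains) in WT and 13.2 ± 1.54 (55 chains) in Btla KO. TRAV8 measured 13.3 ± 1.62 and 13.4 ± 1.49, and TRAV10 13.3 ± 1.48 and 13.4 ± 1.23. All other TRAV chains measured 13.8 ± 1.48 and 13.8 ± 1.5, so every subgroup mean lay below theirs in each library. The gaps were smaller than the SD over chains, which is the spread of single chains and not the error of a mean. In WT the interval of the mean of the other chains was 13.73 to 13.87. Those of TRAV8 (12.89 to 13.69) and TRAV10 (12.85 to 13.67) lay below it. In Btla KO that of TRAV5 (12.81 to 13.62) lay below that of the other chains (13.68 to 13.83). The intervals of TRAV5 in WT and of TRAV8 and TRAV10 in Btla KO overlapped those of the other chains. The most frequent length was 13 in TRAV8 and 14 in TRAV10 in both libraries, and in TRAV5 it was 14 in WT (29 of 71 chains) and 13 in Btla KO (18 of 55). Within TRAV5 the libraries were farthest apart for TRAV5-4, at 14 ± 1.38 and 13.1 ± 1.95, and close for TRAV5-1, at 13.7 ± 1.21 and 13.7 ± 1.45. The intervals of the TRAV5-4 means overlapped (13.5 to 14.4 in WT and 12.3 to 13.9 in Btla KO).

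**Figure D4:**
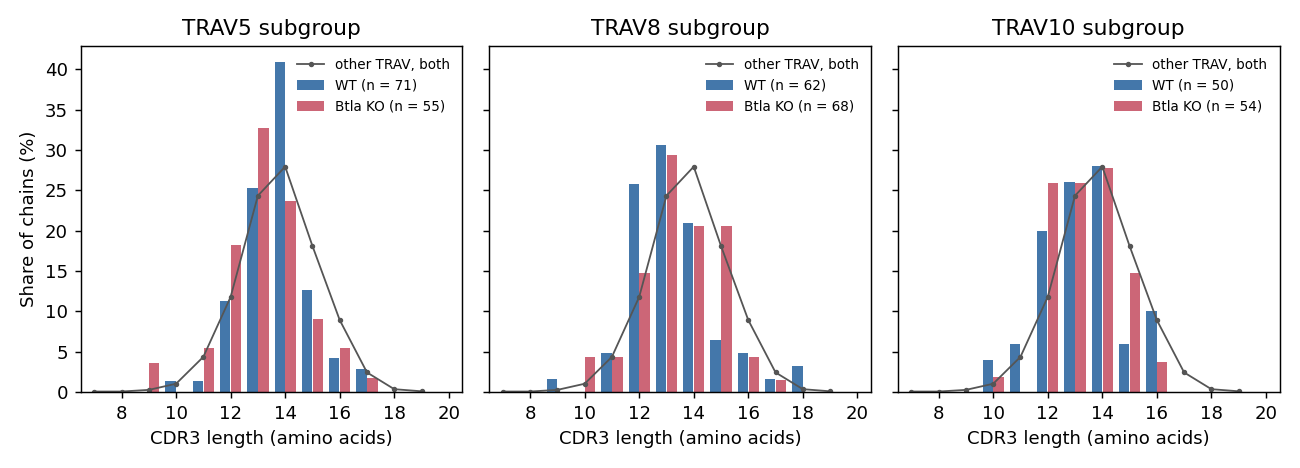
Share of chains (y axis, percent) with each CDR3 length (x axis, amino acids) for the TRAV5, TRAV8 and TRAV10 subgroups, WT in blue and Btla KO in red, with the other TRAV chains of both libraries as a grey line. TRAV8 peaks at 13 in both libraries, and TRAV5 peaks at 14 in WT and 13 in Btla KO.

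Nearly all cells with one of these chains also had a TRB chain. So did the other cells with a TRA chain, 1495 of 1525 in WT and 1567 of 1622 in Btla KO. For the chains described here the counts were 71 of 71 WT and 51 of 55 Btla KO cells for TRAV5. They were 60 of 61 and 66 of 68 for TRAV8, and 49 of 49 and 52 of 54 for TRAV10. In these cells TRBV13, the most used TRBV subgroup in the data, was the commonest partner of each over both libraries. It was carried by 17 WT and 10 Btla KO cells with TRAV5, 22.1% (15.1 to 30.5%) of both libraries, by 13 and 20 cells with TRAV8, 26.2% (18.8 to 34.8%), and by 10 and 10 cells with TRAV10, 19.8% (12.5 to 28.9%). The other cells with TRA and TRB chains had 22.2% (20.8 to 23.8%), inside all 3 intervals. A joint call of TRBV12-2 and TRBV13-2, which the annotation could not tell apart, was counted here as TRBV13, and the ranking depends on this. With the joint call kept apart, TRBV13 was carried by 3 of 49 WT cells with TRAV10, fewer than TRBV1 (8) and TRBV12 (7). In Btla KO cells with TRAV5 it was carried by 6 of 51, fewer than TRBV12 (9). TRBV13 stayed the commonest with TRAV8 in each library and with TRAV5 in WT.

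TRBV12 and TRBV5 came next, with 13.9% and 9.02% of cells with TRAV5, 10.3% and 9.52% with TRAV8, and 14.9% and 11.9% with TRAV10, against 11% and 7.41% of the other cells. TRBV19 was as frequent as TRBV5 in cells with TRAV5, with 7 WT and 4 Btla KO cells each. The largest departure from the other cells within each subgroup was, for TRAV5, a lower share of TRBV16, at 4.10% (1.34 to 9.31%) against 7.09%, and, for TRAV10, a higher share of TRBV1, at 10.9% (5.56 to 18.7%) against 5.72%. Both comparison values fell within those intervals. TRBV1 with TRAV10 was unequal between the libraries, with 8 of 49 WT and 3 of 52 Btla KO cells. TRBV5 with TRAV10 was unequal in the other direction, with 2 of 49 WT and 10 of 52 Btla KO cells, so its pooled share rested mostly on Btla KO. For TRBV1 and for TRBV5 the intervals of the libraries overlapped. For TRAV8 the largest departure was TRBV13 itself, by 3.95 percentage points.

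These chains were captured at low depth, as were all TRA chains. The median was 3 UMIs per chain in both libraries for TRAV5 and TRAV10 and for all other TRAV chains, while TRAV8 had 4 in WT and 2.5 in Btla KO. The highest counts were 12 and 8 UMIs for TRAV5, 9 and 8 for TRAV8, and 12 and 10 for TRAV10. Chains resting on 1 or 2 UMIs made up 29.6% (19.3 to 41.6%) in WT and 43.6% (30.3 to 57.7%) in Btla KO for TRAV5, 27.4% (16.9 to 40.2%) and 50% (37.6 to 62.4%) for TRAV8, and 36% (22.9 to 50.8%) and 48.1% (34.3 to 62.2%) for TRAV10. The other TRAV chains showed the same gap, with 31.3% and 45.3%, so the Btla KO library was the shallower for TRA chains in general, with 6039 UMIs over 1920 chains against 7697 over 1862. Whether this depth had a part in the differences between libraries given above was not tested.

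A cell can carry a second productive alpha chain. Of the WT chains, 15 of 50 in TRAV10, 30% (17.9 to 44.6%), 15 of 62 in TRAV8, 24.2% (14.2 to 36.7%), and 11 of 71 in TRAV5, 15.5% (8.00 to 26.0%), lay in a cell with 2 TRA chains. In Btla KO the counts were 11 of 54, 20.4% (10.6 to 33.5%), 6 of 68, 8.82% (3.31 to 18.2%), and 5 of 55, 9.09% (3.02 to 20%). The other TRAV chains had 16.4% (14.6 to 18.2%) in WT and 12.7% (11.2 to 14.4%) in Btla KO, so that all 4 sets were lower in Btla KO, where UMIs were fewer, and the part of depth in this was not tested. TRAV10 had the highest value in each library, and its WT interval reached down to 17.9%, inside that of the other chains. Cells with over 1 TRB chain numbered 8 of 49 in WT and 8 of 52 in Btla KO with TRAV10, and 7 of 60 and 11 of 66 with TRAV8. With TRAV5 they numbered 3 of 71 and 3 of 51, and among the other cells 115 of 1495 and 145 of 1567. The share was thus higher than in the other cells for TRAV10 and TRAV8 and lower for TRAV5. These counts are small and no interval was computed for them. No doublets were removed, so the part of doublets in these shares was not tested.

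Exact repeats were few, here as among all TRA chains. With each distinct chain counted once per library, all TRA chains fell from 1862 to 1817 in WT and from 1920 to 1851 in Btla KO. The chains described here fell from 360 to 352 over both libraries. Of 352 distinct chains by V gene, J gene and CDR3 residues, 7 were found in 2 or more cells of a library, in 15 cells in all, and 0 were found in both libraries, while 21 of all 3635 distinct TRA chains were. The CDR3 bases of the 7 are given because they show the joints directly, with the bases between the germline V and J parts in capitals.
TRAV5-4 with TRAJ50, WT, 2 cells: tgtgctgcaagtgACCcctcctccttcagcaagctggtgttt
TRAV5-4 with TRAJ52, WT, 2 cells: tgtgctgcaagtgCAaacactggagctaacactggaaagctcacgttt
TRAV10N with TRAJ13, WT, 2 cells: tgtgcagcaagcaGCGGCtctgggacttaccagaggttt
TRAV8D-1 with TRAJ48, WT, 3 cells: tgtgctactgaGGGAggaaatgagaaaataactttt
TRAV8D-1 with TRAJ5, Btla KO, 2 cells: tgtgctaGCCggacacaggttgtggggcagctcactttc
TRAV8N-2 with TRAJ6, Btla KO, 2 cells: tgtgctaAaggaaactacaaacctacgttt
TRAV5N-4 with TRAJ33, Btla KO, 2 cells: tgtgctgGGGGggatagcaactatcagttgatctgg
The repeated TRAV5-4 and TRAV10N chains kept all 13 germline V bases, and the repeated TRAV8 and TRAV5N-4 chains kept 7 or 11. In each repeat the cells had 1 nucleotide sequence. In 5 of the 7 repeats they also shared a TRB chain, and the 3 cells with TRAV8D-1 and TRAJ48 shared 2, TRBV12-2 with TRBJ2-5 and TRBV13-1 with TRBJ2-7. The cells with TRAV5-4 and TRAJ52 and those with TRAV8N-2 and TRAJ6 shared 0.

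The same CDR3 residues were at times carried by a different V gene. This was so for 19 of 104 TRAV10 chains, 18.3% (11.4 to 27.1%), 11 of 126 TRAV5 chains, 8.73% (4.44 to 15.1%), and 4 of 130 TRAV8 chains, 3.08% (0.845 to 7.69%), against 9.61% (8.65 to 10.7%) of the other chains. Over both libraries TRAV10 was above and TRAV8 below the other chains, with intervals apart, but within each library the intervals of both overlapped those of the other chains. TRAV5 had 2 of 71 such chains in WT and 9 of 55 in Btla KO. For TRAV5 and TRAV10 chains the other gene was most often one of TRAV14, in 19 pairs of a chain and a gene, or of TRAV7, in 11. It was a TRAV10 gene in 7 pairs and a TRAV5 gene in 1. For TRAV8 chains it was another TRAV8 gene in 2 pairs, so copies within a subgroup count as different genes here.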

How the data were processed

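Thymic CD4 SP T cells gave 1 WT and 1 Btla KO library of TCR transcripts. Contigs were assembled and annotated by the authors in Cell Ranger 7.2.0 against a GRCm38 V(D)J reference. For each contig the deposited values are whole counts of its reads and of its UMIs, which were not normalized. All contigs kept were from called cells, high-confidence, full-length and productive. The authors' 3 summary tables, of V gene percentages, clone proportions and CDR3 lengths, were not used.

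Every productive TRA contig was counted as 1 chain, and no step was taken to remove doublets. The WT library held 6003 contigs in 4040 cells, of which 1704 had a TRA chain, and the Btla KO library 7101 contigs in 5077 cells, of which 1798 had one. The 30 barcodes found in both libraries carried 2 of the chains described, both WT. Annotated copies of a V gene that differ by few bases can be exchanged by the annotation.

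Chains were chosen by V gene call. TRAJ1 to TRAJ30 were called 3′ segments, and CDR3 starts are the first 4 residues. V genes were compared with the GRCm38.p6 genome and the GENCODE M21 annotation. The CDR3 was divided by the longest match to the germline V end and then to the J segment, a step tested on simulated data. Shares carry exact 95% binomial intervals from scipy 1.17.1, with Python 3.11.15, pandas 2.3.3 and numpy 2.4.6. Figures were drawn with matplotlib 3.10.9.

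Genes named were all V genes of the 3 subgroups, the 3 most used TRAJ partners and the 2 with the largest difference between libraries, and the 3 most used TRBV partners and the 1 farthest from the other cells. The subgroups, lists and measures were chosen with earlier results of these data known.

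The alternatives required 3 UMIs or more per contig, took cells with a single TRA and a single TRB chain, counted each distinct chain as 1, dropped barcodes that occur in both libraries, or took 1 TRA chain per cell. Further ones were TRAJ boundaries after TRAJ20 and TRAJ40, the median length, starts of 3 residues, the joint TRBV call kept apart, and a limit of 1 UMI.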

Additional observations from a re-analysis of the deposited data

How the results depend on the processing

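Of 350 values recomputed under the alternatives, 302 stayed within the interval of the value reported, and 48 did not, most of them because the alternative defines another quantity. The 302 do not measure robustness, because the alternatives reuse the same chains and many single-gene intervals are wide. Dropping barcodes found in both libraries removed only 2 of the chains described, so most of those values could not move. With the TRAJ boundary after TRAJ20 the share of 3′ segments was 22.5% for TRAV5, 46.8% for TRAV8 and 26% for TRAV10 in WT, and 51.5% for TRAV8, 40.7% for TRAV10 and 0% for TRAV5-4 in Btla KO. After TRAJ40 it was 66.2% for TRAV5, 84% for TRAV10 and 36.4% for TRAV5-4 in WT, and 74.5% for TRAV5, 89.7% for TRAV8, 83.3% for TRAV10 and 40.9% for TRAV5-4 in Btla KO. With starts of 3 residues, CAA opened 74.6% and 63.6% of TRAV5 chains in WT and Btla KO (97.2% and 87.3% with CSA counted for TRAV5-1), CAT 80.65% and 77.9% of TRAV8 and CAA 100% and 88.9% of TRAV10 chains. Chains with 1 UMI made up 16.9% and 27.3% of TRAV5, 11.3% and 14.7% of TRAV8 and 20% and 16.7% of TRAV10. The median CDR3 length in Btla KO was 13 for TRAV8 and 13 for TRAV10. Among TRAV10 chains in Btla KO with at least 3 UMIs (28 chains) the mean length was 12.96. With the joint TRBV call kept apart, TRBV13 was carried by 6.12% of WT cells with TRAV10, and among Btla KO cells with TRAV10 and exactly 1 TRA and 1 TRB chain by 8.82% (3 of 34), the cause of which was not tested. No paired analysis was possible because each genotype has 1 library and no result comes from a test across samples. The depth, a median of 3 UMIs per chain, and the 2 to 33 chains of a gene in a library limit every value given for single genes.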

Other observations

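In cells with 2 alpha chains, 1 of which was TRAV5, TRAV8 or TRAV10, the TRAJ numbers of the chains could be set side by side. In 58 such cells the numbers were a median of 6.5 apart (quartiles 2.25 and 13.5), against 6 (3 and 13) in the 222 other cells with 2 TRA chains. In the 7 cells with TRAV5-4 the median was 16, and the other chain used TRAJ31 or a higher number in 4 of them. Of these 7 cells, 2 WT cells carried the same pair of alpha chains, TRAV5-4 with TRAJ52 and TRAV6N-7 with TRAJ27, and are counted separately here.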
